A study of Mus musculus with 14 samples.

Results

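The 10 genes of neural cell adhesion molecule (NCAM) signaling described here encode no collagen and were followed in liver sinusoidal endothelial cells (LSECs), to see whether they moved apart from the collagens with which they share a pathway set. The members were Ncam1, Gfra1, Gfra2, Gdnf, Nrtn, Prnp, St8sia2, St8sia4, Fgfr1 and Fyn, found by matching Ensembl identifiers to GENCODE vM21 names. All 10 were among the 54524 genes of the count table, and all 10 were among the 26626 genes that passed the filter on low counts. LSECs came from male Balb/c mice of 10 to 12 weeks by the labels, while the study's methods give a somewhat older age range. Healthy mice received no injection (4 samples). The others were sampled 1 day (2 samples), 3 days (4 samples) or 7 days (4 samples) after a single intraperitoneal injection of carbon tetrachloride (CCl4) in mineral oil. The dose was 0.5 µL per g of body weight. CCl4 is a solvent that kills hepatocytes around the central veins. No group received mineral oil alone, so CCl4 and its vehicle cannot be told apart here. Further samples of the earliest group were left out by the study for low RNA quality. No genetic change is listed for any group. Cells were sorted as CD32+, F4/80-, without ultraviolet autofluorescence and without propidium iodide, the methods add CD45-, and RNA was taken without culture.

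NCAM1 is an adhesion molecule of the immunoglobulin family, best known from neurons, where it binds itself and other surface proteins and starts signals that lead to neurite outgrowth. It passes signals through FGF receptors and through the Src family kinase FYN, and its long polysialic acid chains, which weaken adhesion, are made by the enzymes ST8SIA2 and ST8SIA4. The GFRα proteins are receptors for ligands of the GDNF family, and NCAM1 can serve as their signaling partner. In the liver, NCAM1 is known from nerve fibers, reactive bile duct cells and activated stellate cells and portal fibroblasts rather than from LSECs. The pathway set also holds fibrillar, network and microfibrillar collagens.

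Total counts ran from 46401496 to 103912264 per sample. Levels are given as CPM, that is counts scaled to a common library size after TMM normalization, and changes as log2 fold changes ± their standard error (SE) from edgeR's quasi-likelihood test over all 14 samples. A gene was called at a Benjamini-Hochberg adjusted p under 0.05 over all tested genes. A gene under 3 counts, which was 0.0299 to 0.0661 CPM depending on the library, was taken as not detected, a limit that covers counting error only. The defining LSEC markers Stab2, Lyve1 and Clec4g were present in every sample, and 10 LSEC markers together reached 10270 to 20923 CPM. The day 3 samples were not alike. Replicates 1 and 2 held 3990.5 and 2094 CPM of 6 monocyte and neutrophil markers and counts on 34678 and 34768 genes, against 95.1 and 65.5 CPM and 28203 and 22986 genes in replicates 3 and 4. Results that rest on day 3 are therefore also given without each of these pairs, a choice made after seeing the data. Healthy replicate 4 held 5735 CPM of 6 hepatocyte markers, against 137 to 267 CPM in the other healthy samples.

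In healthy LSECs the members differed widely in level. Per kilobase of exon (RPKM), Fyn stood far above the rest at 124.9 ± 11.2 (SD, n = 4). Prnp followed at 3.05 ± 0.784, then Gfra2 at 1.19 ± 0.683, Fgfr1 at 0.874 ± 0.150 and St8sia4 at 0.737 ± 0.327, and these last 3 lay within their spread of each other. Gfra1 (0.198 ± 0.338), Nrtn (0.187 ± 0.150), St8sia2 (0.136 ± 0.0451) and Ncam1 (0.0367 ± 0.0170) were low, and Gdnf had no count in any healthy sample. Healthy LSECs thus carried much RNA of the kinase and little or none of the adhesion molecule and the ligands.

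After CCl4, 2 members moved in opposite directions at day 3, and 2 were higher at day 7. None was called at day 1 by edgeR, beside 4.06% of all tested genes (2.42% higher and 1.64% lower). There 4 members had an unadjusted p under 0.05, beside 4759 of all 26626 tested genes. DESeq2 and limma each called 3 members at day 1, where they called 2803 and 4308 genes in all. At day 3 Ncam1 was higher and Fyn was lower, 2 of 10 members against 7.19% of all genes (4.62% higher and 2.58% lower). At day 7 Ncam1 and Prnp were higher, 2 of 10 members against 3.18% of all genes (2.19% higher and 0.992% lower). The median log2 fold change of the 10 members was -0.49 at day 1, 0.62 at day 3 and 0.99 at day 7, beside -0.03, 0.18 and 0.02 for all tested genes. With Gdnf set to the bound that its counts allow, or left out at day 1 where it has no fold, the members' medians were -0.97, 0.62 and 0.69. The comparisons with healthy LSECs share the same 4 healthy samples. The day 3 fold changes below are best read against the general shift of 0.18. The labels give each sample as a separate one but not which mice it came from, so the p-values measure the spread between these samples. The sequenced samples are bulk RNA, so fewer cells of a type and less RNA per cell cannot be told apart.

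**Figure D1:**
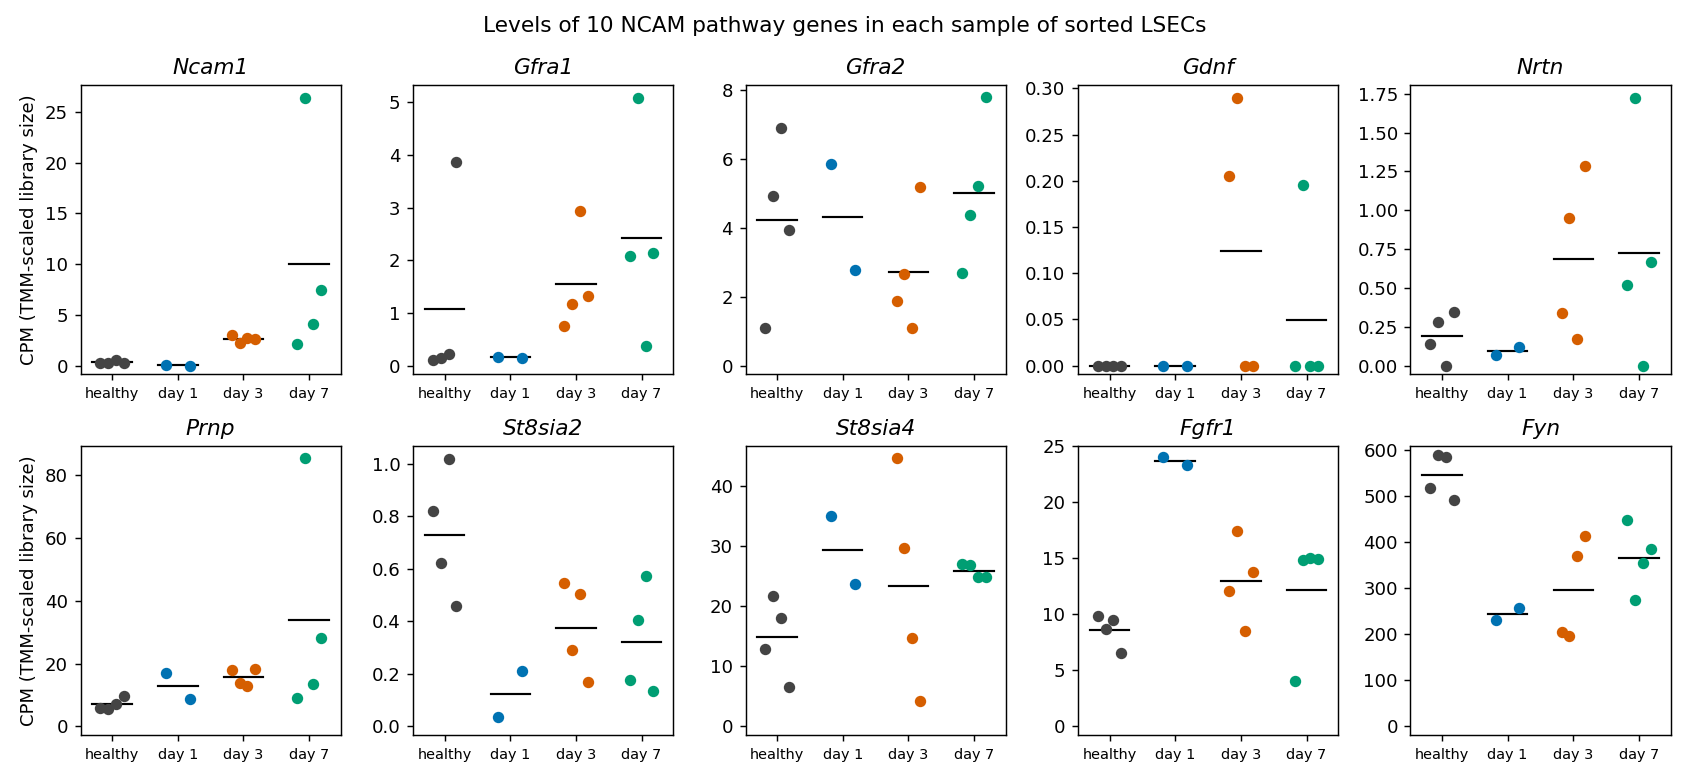
Level of each of the 10 members in every sample, as CPM on TMM-scaled library sizes (linear axes that start at 0 and differ between panels), for healthy LSECs (n = 4) and LSECs at day 1 (n = 2), day 3 (n = 4) and day 7 (n = 4). Each point is a sample and each horizontal line a group mean. Ncam1 lies at 2.26 CPM or above in all day 3 samples and at 2.13 CPM or above in all day 7 samples, above every healthy sample, and Fyn lies highest in healthy LSECs.

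Ncam1, the adhesion molecule that gives the pathway its name, lies on chromosome 9 (GRCm38, 49502136 to 49798925, minus strand). Its levels in the 4 healthy samples were 0.220, 0.305, 0.530 and 0.217 CPM, from 22, 26, 51 and 19 counts. At day 1 it had 9 counts (0.108 CPM) in one sample and none in the other, which allows up to 0.033 CPM. Both day 1 samples lay below all healthy samples, with a log2 fold change of -2.56 ± 1.13 that did not pass the test (adjusted p = 0.251). At day 3 it was present at 3.00, 2.26, 2.76 and 2.63 CPM. The day 3 samples stood close together and all above the healthy ones, and Ncam1 was higher by 3.06 ± 0.79 on the log2 scale (adjusted p = 0.0338, 8.335-fold). At day 7 its levels were 2.13, 26.3, 4.06 and 7.45 CPM. These spread over more than those of any other group, with replicate 2 highest and replicate 1 lowest, and again lay all above the healthy samples. The rise over healthy LSECs was 4.97 ± 0.86 (adjusted p = 0.0105, 31.2-fold).

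The day 7 rise of Ncam1 was called in all 14 fits that left out 1 library, at an adjusted p of 0.00391 to 0.0476. Without the highest library, day 7 replicate 2, the rise was 3.83 with an adjusted p of 0.0276. The day 3 call was less steady. It was lost in 8 of those 14 fits (healthy replicates 1 to 4, day 3 replicates 1, 2 and 3, or day 7 replicate 4 left out), where the rise stayed between 2.81 and 3.42 and the adjusted p reached 0.0984. Without day 3 replicates 1 and 2 it was 3.05 (adjusted p = 0.0637), and without replicates 3 and 4 it was 2.91 (adjusted p = 0.0413). Exact two-sided permutation tests of mean log2 CPM over the samples gave p = 0.0286 at both days, the smallest that 4 samples against 4 can give. The permutation p-values here and below are not adjusted for the 10 members and the several days tested. Ncam1 overlaps an exon of Gm11149 on the opposite strand, and because the use of strand in counting is not stated, reads from both cannot be told apart.

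Prnp encodes the cellular prion protein, a surface protein that binds NCAM1, and lies on chromosome 2 (131909928 to 131938429, plus strand). Healthy samples held 6.02, 5.67, 7.18 and 9.73 CPM. The day 1 samples held 16.9 and 8.56 CPM, one above and the other within the healthy range. At day 3 the levels were 17.9, 13.7, 12.9 and 18.4 CPM. All 4 exceeded every healthy sample (exact two-sided permutation p = 0.0286), but the log2 fold change of 1.14 ± 0.55 did not pass the test across all genes (adjusted p = 0.243). At day 7 they were 8.98, 85.2, 13.6 and 28.02 CPM. Replicate 2 stood far above the others, as it did for Ncam1, and replicate 1 lay below the highest healthy sample. Prnp was higher at day 7 by 2.25 ± 0.56 (adjusted p = 0.048, 4.75-fold), while the permutation test gave an exact p of 0.0571. That call sat close to the threshold and was lost in 11 of 14 fits that left out 1 library (any healthy or day 1 library, day 3 replicates 1 to 3, day 7 replicates 2 or 4). Without day 7 replicate 2 the difference was 1.24 with an adjusted p of 0.155. Reads of Prnp can also fall on the read-through gene Prn of the same strand.

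The GDNF family receptors differed from one another. Gfra1, a receptor preferring GDNF (chromosome 19, 58235604 to 58455909, minus strand), was low in 3 healthy samples at 0.110, 0.141 and 0.218 CPM and reached 3.86 CPM in replicate 4. At day 1 it held 0.167 and 0.154 CPM, at day 3 0.750, 1.17, 2.93 and 1.32 CPM, and at day 7 2.09, 5.08, 0.375 and 2.15 CPM. All 8 samples of days 3 and 7 lay above the 3 low healthy samples, but only 1 of them, day 7 replicate 2, lay above the fourth, so the groups overlapped. The log2 fold changes were -2.74 ± 1.47 at day 1, 0.51 ± 1.02 at day 3 and 1.17 ± 1.03 at day 7, none of which passed the test, though limma called day 7 (2.87, adjusted p = 0.0246). These values turned on healthy replicate 4, the library with the most hepatocyte marker RNA among the healthy samples. Without it Gfra1 was higher by 3.21 at day 3 (adjusted p = 0.0398) and by 3.98 at day 7 (adjusted p = 0.0228). The 6 hepatocyte markers also summed to 650 to 2386 CPM at day 3 and 648 to 5006 CPM at day 7, and these libraries stayed in that fit. In the other healthy samples they summed to 137 to 267 CPM. Gfra1 and this sum were both highest in replicate 3 and lowest in replicate 1 at day 3. At day 7 both were highest in replicate 2 and lowest in replicate 3. The part of hepatocytes or of other cells in these Gfra1 values was not tested. Gfra1 overlaps an exon of Gm16277 on the opposite strand.

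Gfra2, the receptor preferring neurturin (chromosome 14, 70890120 to 70979838, plus strand), showed no such pattern. It ran at 1.11, 4.95, 6.91 and 3.95 CPM in healthy LSECs, 5.87 and 2.77 CPM at day 1, 1.87, 2.67, 1.09 and 5.20 CPM at day 3, and 2.69, 4.38, 5.23 and 7.82 CPM at day 7. All groups overlapped, and the log2 fold changes against healthy were 0.03 ± 0.69, -0.64 ± 0.56 and 0.25 ± 0.56. The summed Kupffer cell markers were 125, 926, 1039.7 and 796 CPM in healthy replicates 1 to 4. Gfra2 had the same order of replicates as this sum in healthy, day 1 and day 7 samples, but not at day 3. The part of Kupffer cells in the level of Gfra2 was not tested.

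The ligands were low, and Gdnf was not detected in most libraries. Gdnf (chromosome 15, 7810846 to 7837575, plus strand) had counts in only 3 of the 14 libraries. These were day 3 replicates 1 and 2, with 17 counts each (0.206 and 0.289 CPM), and day 7 replicate 2, with 14 counts (0.196 CPM). The mean at day 3 was at least 3.78-fold and that at day 7 at least 1.5-fold higher than a floor of 3 counts per healthy library, and neither difference passed the test (adjusted p = 0.193 and 0.281). By limma, the day 3 difference of Gdnf was called (adjusted p = 0.0132). Gdnf passed the filter on low counts only through the 3 libraries that hold it, so no support is drawn from this call. Among the day 3 libraries, those with Gdnf are the ones with the most monocyte and neutrophil marker RNA. The day 1 libraries, with 6237 and 2631 CPM of these markers, had no Gdnf count. Day 3 replicates 1 and 2 and day 7 replicate 2 are among the 4 libraries with the most stellate cell marker RNA. Whether these cells contributed was not tested. Nrtn encodes neurturin (chromosome 17, 56751325 to 56757530, minus strand). It held 0.140, 0.282, 0 and 0.343 CPM in healthy samples and 0.0718 and 0.121 CPM at day 1. It held 0.339, 0.953, 0.175 and 1.28 CPM at day 3 and 0.520, 1.72, 0 and 0.670 CPM at day 7. The highest values were at day 3 and day 7, yet each of these groups overlapped the healthy samples, and the log2 fold changes of 1.84 ± 1.17 and 1.93 ± 1.18 did not pass the test.

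The polysialyltransferases gave opposite signs. St8sia2 (chromosome 7, 73939119 to 74013690, minus strand) was low in all groups, with 0.818, 0.623, 1.02 and 0.458 CPM in healthy LSECs, 0.0359 and 0.209 CPM at day 1, 0.544, 0.289, 0.502 and 0.170 CPM at day 3, and 0.177, 0.406, 0.573 and 0.136 CPM at day 7. Both day 1 samples lay below all healthy samples (log2 fold change -2.55 ± 0.87, adjusted p = 0.128). DESeq2 (-2.59, adjusted p = 0.0145) and limma (-2.93, adjusted p = 0.0163) called this difference, and limma also called St8sia2 lower at day 7 (-1.52, adjusted p = 0.0375). St8sia4 (chromosome 1, 95587682 to 95667571, minus strand) was the more abundant of the pair, with 12.9, 21.6, 18.1 and 6.55 CPM in healthy samples and 35.0 and 23.7 CPM at day 1. At day 3 its levels were widely spread, at 44.7, 29.8, 14.8 and 4.25 CPM, and at day 7 they were close together, at 27.0, 26.9, 24.9 and 24.8 CPM. The day 1 and day 7 samples lay above all healthy samples, with log2 fold changes of 0.99 ± 0.62 and 0.81 ± 0.53 that did not pass the test (adjusted p = 0.464 and 0.400), while the exact two-sided permutation p at day 7 was 0.0286. At day 3 St8sia4 was high in the replicates 1 and 2 with monocyte and neutrophil RNA and lower in replicates 3 and 4. Without replicates 3 and 4 the day 3 difference was 1.21 (adjusted p = 0.033), and without replicates 1 and 2 it was -0.66 (adjusted p = 0.418). The part of leukocytes in this was not tested.

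Fgfr1, the FGF receptor that NCAM1 can engage (chromosome 8, 25513654 to 25575718, plus strand), stood highest at day 1. Healthy samples held 9.80, 8.65, 9.53 and 6.54 CPM, and the day 1 samples held 24.0 and 23.3 CPM. The latter lay above all healthy samples and close to each other, with a log2 fold change of 1.45 ± 0.42 that missed the threshold (adjusted p = 0.0715). DESeq2 gave 1.44 with an adjusted p of 0.0169 and limma gave 1.43 with an adjusted p of 0.0037. At day 3 its levels were 12.1, 17.4, 8.46 and 13.7 CPM and at day 7 4.01, 14.8, 14.97 and 14.9 CPM. Day 7 replicate 1 was the lowest of all 14 samples and the other 3 were almost equal, and the differences of 0.58 ± 0.36 and 0.50 ± 0.36 from healthy LSECs did not pass the test. Fgfr1 overlaps an exon of Gm16159 on the opposite strand.

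Fyn, the kinase that carries the NCAM1 signal to focal adhesion kinase and the Ras pathway, was by far the most abundant member (chromosome 10, 39368855 to 39565381, plus strand). It held 516, 589, 584 and 491 CPM in healthy LSECs and 230.2 and 256 CPM at day 1. At day 3 the samples fell into pairs, with 204 and 196 CPM in replicates 1 and 2 and 369.8 and 413 CPM in replicates 3 and 4. At day 7 it held 447, 274, 355 and 385 CPM. No sample after CCl4 reached the lowest healthy one. The log2 fold change was -1.16 ± 0.32 at day 1 (adjusted p = 0.0582), -0.88 ± 0.25 at day 3 (adjusted p = 0.0465) and -0.58 ± 0.25 at day 7 (adjusted p = 0.2), of which edgeR called day 3. The exact two-sided permutation p was 0.0286 at day 3 and at day 7, and 0.0667 at day 1, each the smallest its design allows. DESeq2 (adjusted p = 0.00446) and limma (adjusted p = 0.00023) also called the difference at day 1. At day 7, limma called Fyn lower (-0.67, adjusted p = 0.00488), while DESeq2 gave an adjusted p of 0.178.

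The day 3 call of Fyn was fragile in size as well as in p. It was lost in 10 of 14 fits without 1 library (any healthy or day 1 library, day 3 replicates 1 or 2, day 7 replicates 3 or 4), where the difference ran from -1.16 to -0.71 over all 14. With library size in place of TMM factors it was -0.80 with an adjusted p of 0.136. Without day 3 replicates 1 and 2 it was -0.50 (adjusted p = 0.122), and without replicates 3 and 4 it was -1.57 (adjusted p = 0.00075).

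**Figure D2:**
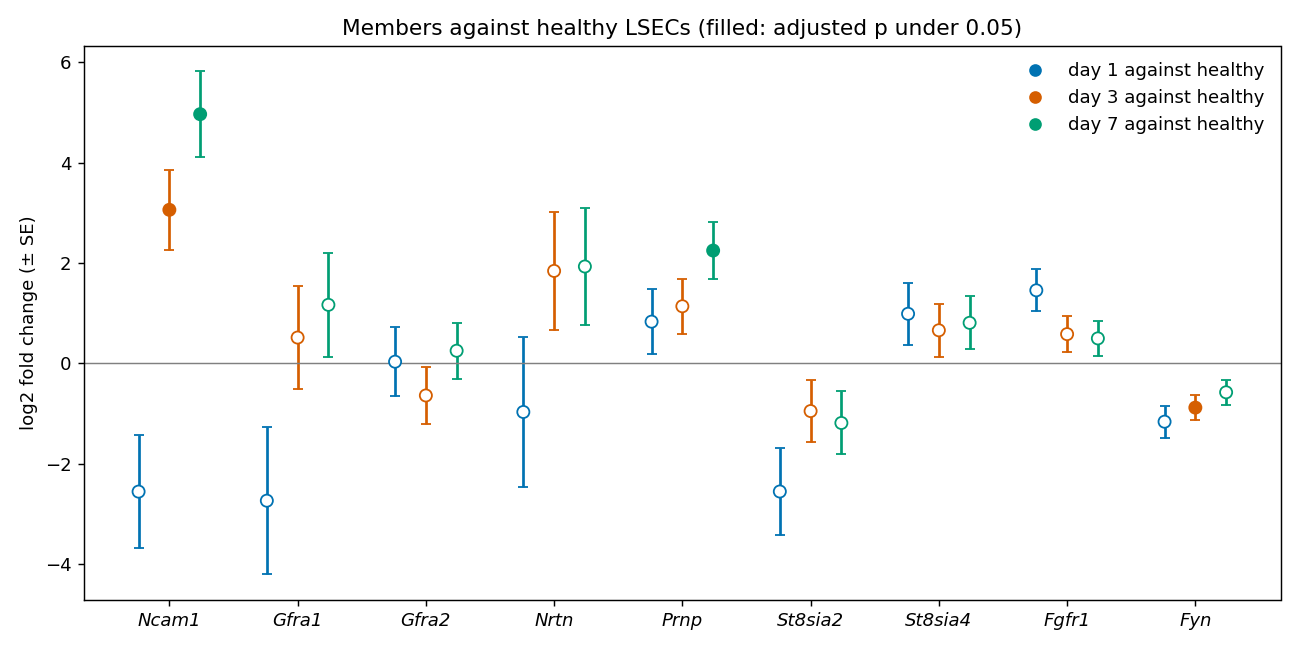
Log2 fold change (± SE) of 9 members at day 1, day 3 and day 7 against healthy LSECs, from edgeR over all 14 samples, with filled points for an adjusted p under 0.05. Gdnf is left out, since it had no count in healthy LSECs. The filled points are Ncam1 at day 3 and day 7 (3.06 and 4.97), Prnp at day 7 (2.25) and Fyn at day 3 (-0.88).

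Between the days after CCl4, Ncam1 was the member that was called. From day 1 to day 3 it was higher by 5.62 ± 1.26 (adjusted p = 0.0327), 1 of 10 members where 2.54% of all genes were called. This rests on a day 1 level of 9 counts in all and was lost in 5 of 14 fits without 1 library (either day 1 library, day 3 replicates 1 or 3, or day 7 replicate 4), with an adjusted p of up to 0.269. From day 3 to day 7, edgeR called none of the members, beside 1.77% of all genes. At an unadjusted p under 0.05 there was 1 member, beside 5017 of all 26626 tested genes. DESeq2 called 0 members, beside 1731 genes in all. Limma called 1, Fyn (0.71, adjusted p = 0.0139), beside 6002 genes in all. Ncam1 differed there by 1.91 ± 0.75 (adjusted p = 0.206) and Prnp by 1.11 ± 0.54 (adjusted p = 0.292). These comparisons share samples with those against healthy LSECs.

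Of the 35 other pathway genes that encode no collagen, 34 were tested. This list and that of the collagens were written from general knowledge of the pathway, without a copy of the pathway set, so their membership may differ from it. The other genes are partners of NCAM1 at the surface, calcium channel subunits, spectrins, the kinases Src and Ptk2 with the phosphatase Ptpra, and the Ras, ERK and CREB chain. At day 1, 1 was called higher, beside 4.06% of all genes. At day 3, 3 were higher, beside 7.19%, and at day 7, 3 were higher and 1 lower, beside 3.18%. Their median log2 fold changes of -0.10, 0.09 and 0.08 lay near those of all genes. Cacna1d, the pore subunit of a voltage-gated calcium channel, was higher at day 1 (2.49 ± 0.61, adjusted p = 0.0354), day 3 (2.12 ± 0.54, adjusted p = 0.0308) and day 7 (2.84 ± 0.55, adjusted p = 0.0173), from 0.217 to 0.639 CPM in healthy LSECs to 1.67 to 5.03 CPM at day 7. Cacnb3, a channel subunit inside the cell, was higher at day 3 (1.30 ± 0.36, adjusted p = 0.0443) and day 7 (1.62 ± 0.36, adjusted p = 0.0307). Gfra4, the receptor for persephin, was higher at day 7 (2.92 ± 0.72, adjusted p = 0.044), at no more than 1.10 CPM. Cdk1, a kinase of the cell cycle that the pathway set lists, was higher at day 3 (2.01 ± 0.28, adjusted p = 0.002), at 97.5 to 137 CPM against 17.9 to 41.5 CPM.

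Among 15 relatives outside the pathway set, 14 were tested, and 2 were called at day 3, beside 7.19% of all genes, and 2 at day 7, beside 3.18%. Fgfr2, an FGF receptor, was higher at day 3 (3.05 ± 0.71, adjusted p = 0.0217) and at day 7 (3.18 ± 0.72, adjusted p = 0.0319). Chl1, an adhesion molecule related to L1, was higher at day 7 (4.48 ± 1.04, adjusted p = 0.0368) from 0.0312 to 0.0599 CPM to 0.198 to 1.54 CPM. Yes1, a kinase of the same family as Fyn, was lower at day 3 (-1.03 ± 0.28, adjusted p = 0.0431). Ret, the usual signaling partner of the GFRα receptors, was at or below 0.238 CPM in every sample.

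The collagens of the pathway moved in larger numbers and further. Of 16 listed, 15 were tested. At day 1, 2 were called higher and 1 lower, beside 4.06% of all genes called in either direction. At day 3, 7 were higher and 2 lower, beside 7.19%, and at day 7, 6 were higher and none lower, beside 3.18%. The lower chains were Col4a4 at day 1 (-2.79 ± 0.54, adjusted p = 0.00995) and Col4a3 (-2.83 ± 0.49, adjusted p = 0.00567) and Col4a4 (-1.56 ± 0.38, adjusted p = 0.0275) at day 3, which are basement membrane chains. Their median log2 fold changes were -1.25, 1.42 and 2.19, beside -0.49, 0.62 and 0.99 for the members. The largest rises were those of chains of type III, V and VI collagen, which stellate cells and fibroblasts are known to make. Col3a1 was higher by 4.55 ± 0.87 at day 3 (adjusted p = 0.00817) and 5.70 ± 0.92 at day 7 (adjusted p = 0.00779), Col6a3 by 4.84 ± 0.78 and 5.48 ± 0.80, Col5a1 by 4.00 ± 0.67 and 5.21 ± 0.71 and Col6a2 by 2.79 ± 0.73 and 4.72 ± 0.80, all called at both days. Among the 9 members with a count in healthy LSECs, Ncam1 alone had changes of that size at both days, at 3.06 and 4.97.

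The basement membrane chains Col4a1 and Col4a2 followed another course. Col4a1 held 367 to 509 CPM in healthy LSECs and 1284 and 1254 CPM at day 1, a difference of 1.57 ± 0.38 (adjusted p = 0.0325). Col4a2 was higher by 1.74 ± 0.34 (adjusted p = 0.0102) at day 1 and by 1.42 ± 0.29 (adjusted p = 0.012) at day 3. At day 7 both differed from healthy LSECs by 0.36 ± 0.32 and 0.57 ± 0.29 and were not called. Because these chains are abundant, the summed level of the 16 collagens was already 2210 and 2262 CPM at day 1 against 654 to 880 CPM in healthy LSECs. Without both chains the sum of the other 14 was 14.5 and 20.5 CPM at day 1 and 39.6 to 51.9 CPM in healthy LSECs, then 322 to 1307 CPM at day 3 and 188 to 3356 CPM at day 7. At day 1, Ncam1 lay below its healthy range as that sum did, while Fgfr1 lay above its own as Col4a1 and Col4a2 did. St8sia2 and Fyn also lay below their healthy ranges and St8sia4 above its own. None of these members was called at day 1 by edgeR. With 2 samples against 4, the smallest exact two-sided permutation p is 0.0667. The share of all genes that lay outside their healthy range at day 1 was not computed, so nothing particular to the members is read from this. The comparison of the members with the collagens rests on these counts and medians, and the difference between the lists was not tested.

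**Figure D3:**
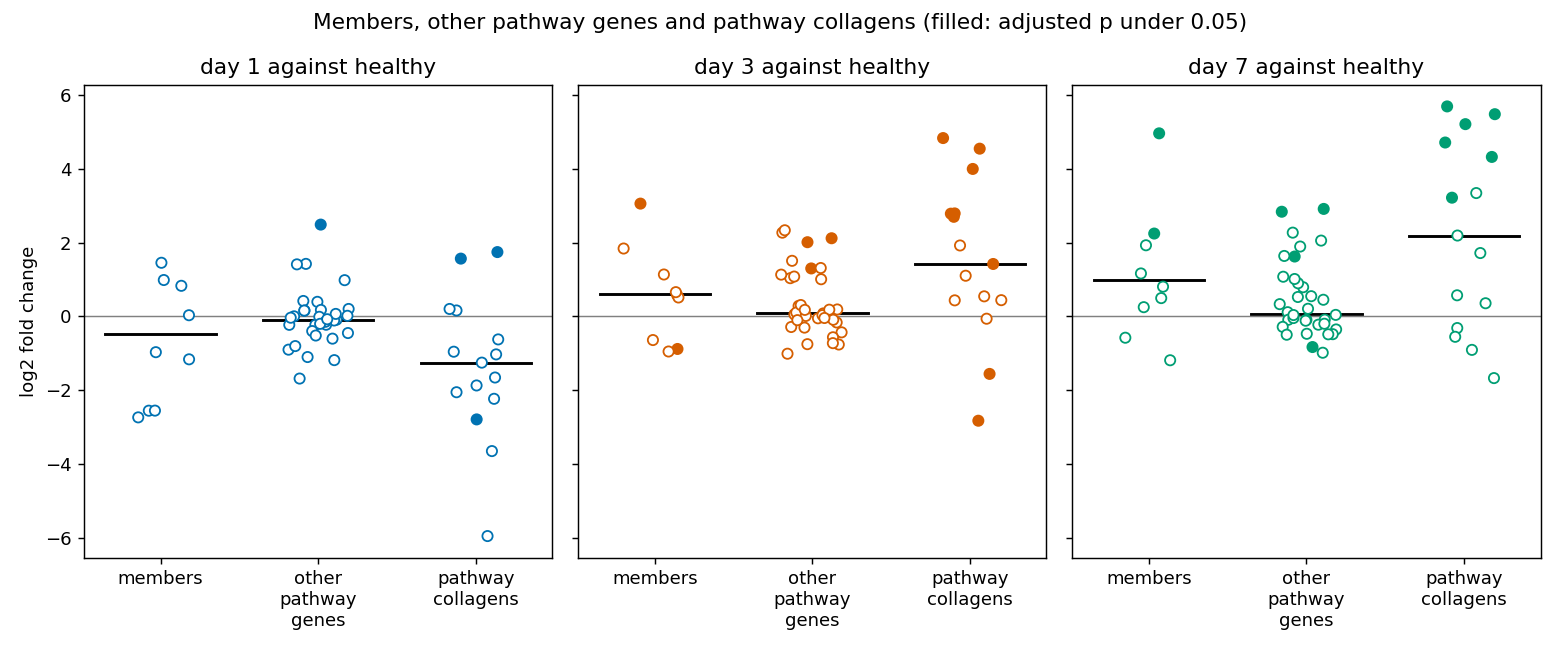
Log2 fold changes against healthy LSECs at day 1, day 3 and day 7 of the members, the other pathway genes and the pathway collagens, 1 point per tested gene, filled for an adjusted p under 0.05. Black lines are the medians over all tested genes of each list, and genes with no count in a whole group are in the medians but not drawn. The collagens have the median furthest from 0 on each day (-1.25, 1.42 and 2.19), and the other pathway genes have medians near 0 (-0.10, 0.09 and 0.08), with single genes up to 2.92.

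Markers of cells that surround LSECs moved with some members. Of 12 stellate cell markers outside the matrix, all tested, 7 were higher at day 3 and 9 at day 7, with none lower and with medians of 2.73 and 3.05. Lrat, Des and Pdgfrb, which define these cells, were detected in every sample. The summed level of all 12 markers was 33.4 to 59.6 CPM in healthy LSECs, 33.8 and 48.6 CPM at day 1, 158 to 376 CPM at day 3 and 55.2 to 673 CPM at day 7. At day 7 the sum was 55.2, 673, 225 and 377 CPM in replicates 1 to 4, and Ncam1, Prnp, Col3a1 and Col6a3 had their lowest value in replicate 1, the next in replicate 3 and their highest in replicate 2. At day 3, where the sum was 376, 336, 158 and 268 CPM, Ncam1 and Prnp did not follow that order in full, and Col3a1 was highest in replicate 4 at 879 CPM.

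Ncam1 per 100 CPM of stellate markers was 0.739 ± 0.341 before injury, then 1.05 ± 0.482 on day 3 and 2.89 ± 1.155 on day 7 (SD, n = 4), when all day 7 samples (1.80 to 3.91) lay above all healthy ones (0.365 to 1.12). Prnp per 100 CPM of these markers was 15.9 ± 0.892 before injury, 5.96 ± 1.89 on day 3 and 10.6 ± 4.74 on day 7, when the day 3 samples lay below all healthy ones and the day 7 samples overlapped them. Col3a1, taken in the same way, was 34.8 ± 9.18 before injury, 137 ± 132 on day 3 and 204 ± 73.5 on day 7. In the 2 day 1 samples the ratios were 34.7 and 25.3 for Prnp, above all healthy ones (15.1 to 17.0). They were 0.221 and 0 for Ncam1 and 18.7 and 10.8 for Col3a1, below all healthy ones. The part of stellate cells in the changes of Ncam1 and Prnp was not tested.

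The 10 LSEC markers had a lower sum after CCl4, at 12292 and 15189 CPM at day 1, 10659 to 14883 CPM at day 3 and 10270 to 15031 CPM at day 7, against 17632 to 20923 CPM in healthy LSECs. Of these 10, 1 was higher and 2 lower at day 1, and 1 higher and 2 lower at day 3. The higher one was Lyve1 on both days, at 3020 and 3397 CPM at day 1 against 271 to 534 CPM in healthy LSECs. Lyve1 is part of the sum and so lowers ratios to it at day 1, and a ratio without Lyve1 was not computed. Fyn per 1000 CPM of LSEC markers was 28.1 ± 2.93 in healthy LSECs and 28.4 ± 1.25 at day 7 (SD, n = 4), and the healthy range of 24.7 to 31.8 held all day 7 samples. It was 18.7 and 16.9 at day 1. At day 3 it was 19.1 and 16.7 in replicates 1 and 2 and 27.4 and 27.7 in replicates 3 and 4. At day 1 the high Lyve1 in the sum also lowers this ratio, so its day 1 values are not directly comparable with those at day 3. With that limit, the samples with low ratios were the 4 samples with 2094 to 6237 CPM of monocyte and neutrophil markers. That list, 6 markers among them S100a8 and Ccr2, held 26.2 to 175 CPM in healthy LSECs and 157 to 260 CPM at day 7, and 3 of its genes were higher at day 1 and 2 at day 3. The part of these cells in the change of Fyn was not tested.

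Markers of other cell types were present at lower or uneven levels, and their part in the members' changes was not tested. Markers of T and natural killer cells summed to 33.8 to 155 CPM in healthy LSECs, 48.2 and 58.5 CPM at day 1, 10.99 to 226 CPM at day 3 and 58.2 to 78.2 CPM at day 7. Markers of portal fibroblasts and mesothelium summed to 12.0 to 22.3 CPM in healthy LSECs, 4.94 and 5.61 CPM at day 1, 21.6 to 79.0 CPM at day 3 and 10.4 to 97.3 CPM at day 7, with list medians of 0.96 at day 3 and 1.05 at day 7 on the log2 scale. Of these 6 genes, 1, Wt1, was called, higher at day 3 (2.38 ± 0.61) and day 7 (4.44 ± 0.67). The mesothelial genes Upk3b and Msln differed from healthy LSECs at day 3 by -2.20 ± 0.85 and -1.95 ± 1.17, which did not pass the test. Cholangiocyte markers summed to 7.51 to 31.3 CPM over all samples. Among Schwann cell genes, which would mark nerves, Sox10 had no count in healthy or day 1 samples. Sums over all samples were 20.6 to 163 CPM for B cells, 125 to 1039.7 CPM for Kupffer cells and 21.6 to 5735 CPM for hepatocytes.

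**Figure D4:**
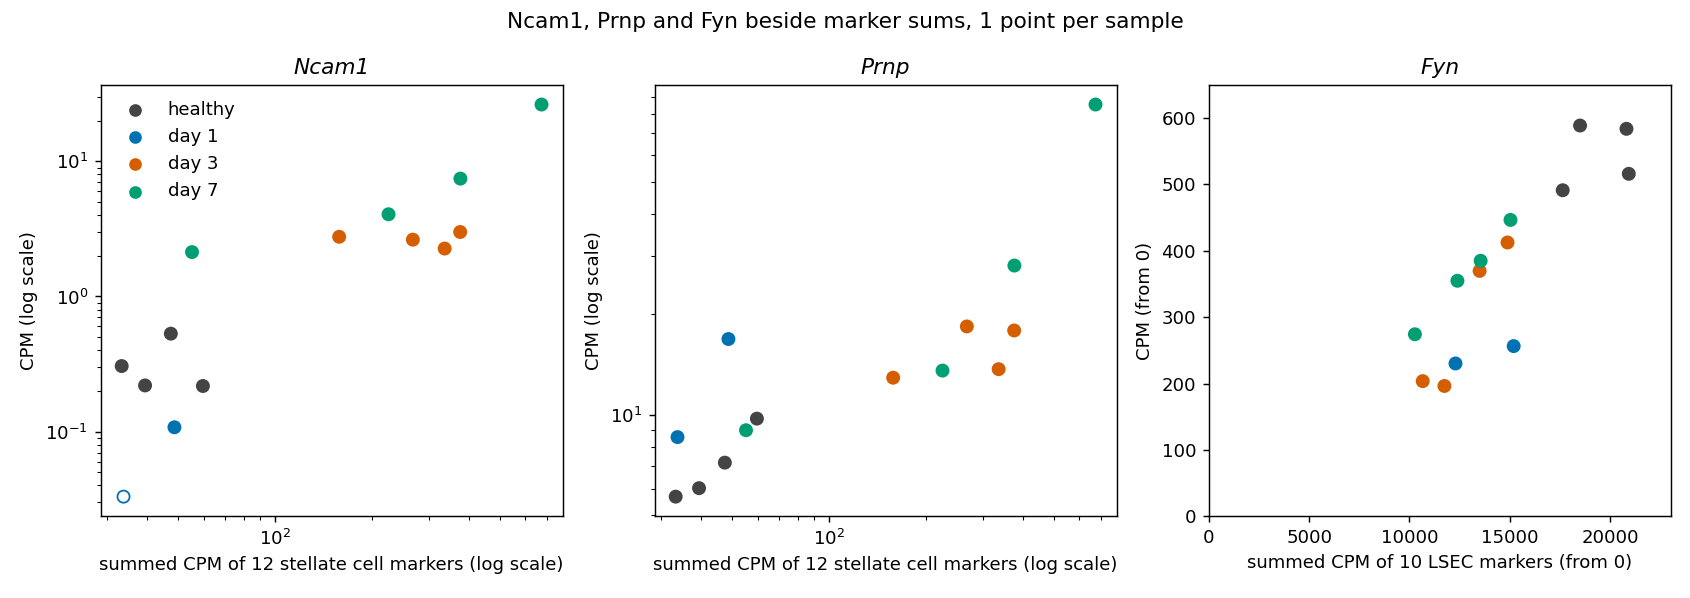
Level of Ncam1 and Prnp against the summed level of 12 stellate cell markers (both axes in CPM, log scale) and of Fyn against the summed level of 10 LSEC markers (both axes in CPM, from 0), with 1 point per sample. The open circle is day 1 replicate 2, which had no Ncam1 count and is drawn at the CPM of 3 counts. Day 7 replicate 2 is highest for Ncam1 (26.3 CPM), Prnp (85.2 CPM) and the stellate sum (673 CPM), and both day 1 samples and day 3 replicates 1 and 2 lie low for Fyn.

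The genes whose log2 CPM was most like that of each member over the 14 samples were looked up among tested genes of at least 1 CPM on average, with Pearson's r given as a description, since all points share library depth and group. The genes nearest to Ncam1 were Gucy1b1 (r = 0.964), Runx1t1 (0.963) and the collagen Col6a1 (0.961). Those nearest to Prnp were Plod2 (0.920), an enzyme that modifies collagen lysines, Cygb (0.917), a stellate cell globin, and Arhgap28 (0.912). Fyn was nearest to Mb21d2 (0.979), Vangl1 (0.976) and Plk2 (0.972). Fgfr1 was nearest to Zfp423 (0.939), Mtor (0.894) and Actn1 (0.891), and St8sia4 to Gm9733 (0.966), Rhoh (0.961), a GTPase of blood cells, and Ctse (0.960). Gfra1 was nearest to Perp (0.979), Fndc4 (0.968) and Qprt (0.967), and Gfra2 to Amot (0.889), Tlr12 (0.870) and Angptl7 (0.857). St8sia2 was nearest to Sumf2 (0.879), Copz2 (0.875) and Ttc21b (0.862). For the sparse genes Gdnf (Dap, 0.901, and Tmem141, 0.855) and Nrtn (Gm17057, 0.766, 1700012D14Rik, 0.756, and E230013L22Rik, 0.755) the values rest on few counts. No other member was among these genes, and a collagen of the pathway was among them for Ncam1.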

How the data were processed

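RNA of sorted LSECs was sequenced in 14 samples. The authors aligned the trimmed reads (STAR, build GRCm38.p6), ran StringTie on the alignments, and deposited raw counts, 1 whole number for each Ensembl gene and sample. Tool versions, annotation release and use of strand in counting are not given in the sources used here. Groups were taken from the labels. Names, positions and overlaps came from GENCODE vM21, which held 54495 of 54524 genes, and 9902 genes had no count.

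The filter of edgeR left 26626 genes (minimum count 10, minimum total 15, by group), which were tested with edgeR 4.0.16 (R 4.3.3) by TMM scaling and the quasi-likelihood test in a model of 4 group means over 14 samples. The SE is the absolute log2 fold change over the square root of F. Log2 CPM used a prior count of 2. The study names DESeq2, used here as an alternative (DESeq2 1.42.0) beside limma 3.58.1 (voom, samples weighted by quality), RLE factors, library size only, other filters and a threshold of 0.1, 2-group fits, a replicate block, omission of each sample, a prior count of 0.5, and 2 pairs of day 3 samples left out. Single members were also compared by exact permutation, with no adjustment for the number of members or comparisons. Steps were tested on simulated data.

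The members and the gene lists were chosen with earlier results of these data known. Named were all members, called pathway genes and relatives (at most 10, by adjusted p), Col4a1, Col4a2 and the 4 collagens with the largest called change at day 3 or day 7, defining markers, and for each member the 3 genes with the highest r. Col4a3, Col4a4, Upk3b, Msln, Wt1, Ret, Src, Ptk2 and Ptpra were named outside this rule or after values were seen. Some genes that this rule selects are not reported here.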

Additional observations from a re-analysis of the deposited data

Results flagged for a closer look

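In groups of 4 samples, the gap between the most extreme sample and its nearest neighbor was set against the whole range of log2 CPM, and 2 of 29 groups of members exceeded Dixon's critical value. Chance flags about 1 group in 20. Gdnf at day 7 had counts in replicate 2 alone (0.196 CPM, gap over range 1). With no count in the other replicates the gap over range is 1 at any level, so this flag was fixed by the missing counts. Fgfr1 at day 7 was lowest in replicate 1 (4.01 CPM, against 14.8, 14.97 and 14.9 CPM in the others, gap over range 0.993).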

How the results depend on the processing

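Counts of called genes moved with the tool, the samples in the fit and single libraries. For day 1, day 3 and day 7 against healthy, day 3 against day 1 and day 7 against day 3, in that order, DESeq2 called 2803, 3757, 2721, 2355 and 1731 genes, limma 4308, 7265, 7047, 3344 and 6002, a threshold of 0.1 gave 1853, 3136, 2076, 1211 and 926, fits of only the 2 groups compared gave 2327, 1108, 3156, 189 and 1, and leaving out day 3 replicates 3 and 4 gave 2728, 6245, 4042, 2784 and 6133. Without day 3 replicates 1 and 2, 1952 genes were called at day 1, 2306 at day 7 and 1923 between days 1 and 3. Between days 3 and 7, library size only gave 287 genes and no filter gave 157. Leaving out 1 library gave 164 to 1845, 946 to 3314, 193 to 2166, 49 to 932 and 26 to 1652 genes. The lowest of these counts came without day 1 replicate 1, healthy replicate 2, healthy replicate 1, day 1 replicate 1 and day 7 replicate 3, and the highest of the first 3 and the last without day 3 replicate 4.

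Counts of members called moved too. At day 1 they were 3 with DESeq2 and limma, 2 at a threshold of 0.1, in 2-group fits and without day 3 replicates 3 and 4, and 1 without day 3 replicates 1 and 2. At day 3 they were 1 with library size only and in 2-group fits, and 0 without day 3 replicates 1 and 2. At day 7 they were 5 with limma and 1 without the filter and in 2-group fits. Between days 1 and 3 they were 0 in 2-group fits, and between days 3 and 7 they were 1 with limma and without day 3 replicates 3 and 4. Without 1 library they were 0 to 1, 0 to 2, 1 to 2, 0 to 1 and 0 to 0. Other pathway genes called were 2 at day 1 with DESeq2, a threshold of 0.1, 2-group fits and without day 3 replicates 3 and 4, 6 with limma and 0 without the filter. At day 3 they were 7 with DESeq2, 5 at a threshold of 0.1 and 13 with limma and without day 3 replicates 3 and 4. At day 7 they were 14 with limma, 10 in 2-group fits and without day 3 replicates 3 and 4, and 2 without the filter. Without 1 library they were 0 to 2, 1 to 5 and 0 to 7. Collagens called at day 1 were 6 with DESeq2, 7 in 2-group fits and 5 without day 3 replicates 3 and 4, and at day 7 10 with limma. Without 1 library they were 0 to 5, 4 to 9 and 4 to 8.

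Same-numbered replicates did not deviate together (r from -0.232 to 0.0962), so their numbers were not taken to pair them. With the number as a replicate block, 594 genes were called at day 1, 435 at day 7, 311 between days 1 and 3 and 244 between days 3 and 7. With the replicate block, members called were 0 at day 3, 1 at day 7 and 0 between days 1 and 3, and other pathway genes called were 0 at day 1 and 1 at day 7. Prnp at day 7 then had an adjusted p of 0.113, and 0.0594 without the filter and 0.0521 in 2-group fits.

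Changes of sign concerned members that were not called, as log2 fold changes. Gfra2 at day 1 was -0.05774 with limma, -0.02317 with library size only, -0.04979 without the filter, -0.009096 with at least 10 counts in every sample of a group, -0.01389 in 2-group fits and -0.0006864 without day 3 replicates 3 and 4. Nrtn at day 1 was 0.3956 with limma, and its difference of mean log2 CPM was 0.03897 at a prior count of 0.5. With limma, St8sia4 was 0.07662 and Fyn -0.1736 between days 1 and 3, and Nrtn was -0.8046 and St8sia4 -0.2458 between days 3 and 7, where Nrtn was -0.6282 with the block. Without day 3 replicates 1 and 2, St8sia4 was -0.6605 at day 3, and between days 3 and 7 Fgfr1 was 0.1687 and Fyn -0.05309. Without day 3 replicates 3 and 4, Gfra1 was -0.327 at day 3, St8sia4 0.2397 and Fyn -0.3844 between days 1 and 3, and St8sia4 -0.3923 between days 3 and 7. Leaving out 1 library, Gfra2 ran from -0.6479 to 0.4423 at day 1 and -0.06678 to 0.5933 at day 7, Gfra1 from -3.116 to 0.01384 at day 1 and -0.1894 to 3.211 at day 3, and Prnp from -0.1826 to 0.8034 between days 1 and 3. Between days 3 and 7, Nrtn ran from -0.7711 to 0.7263, St8sia2 from -0.5119 to 0.1519, St8sia4 from -0.08775 to 0.7983 and Fgfr1 from -0.1931 to 0.3374. The cause of these changes was not tested.

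Depth was ample for Fyn, while Gdnf, Nrtn, St8sia2 and, in healthy and day 1 samples, Ncam1 rested on few counts. Day 1 had 2 samples.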
